A study of Mus musculus with 8 samples.

Results

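The genes described here encode glutamate receptors of the mouse brain and auxiliary subunits of AMPA receptors. They were taken by symbol from a list of 32 genes, all of which are among the 53379 genes of the count table. The list holds the 4 AMPA receptor pore subunits (*Gria1* to *Gria4*), 7 NMDA receptor subunits, 5 kainate receptor subunits, 1 delta receptor, 6 metabotropic receptors, 4 transmembrane AMPA receptor regulatory proteins (TARPs), 2 cornichon proteins and 3 Shisa proteins. Poly(A) RNA of the cingulate cortex was sequenced from 4 male *Mvp*+/+ mice (WT) and 4 male *Mvp*-/- mice (Mvp KO), none of which received a treatment. *Mvp* encodes the major vault protein, the main component of the ribonucleoprotein particles called vaults. The KO allele is a gene trap, in which a β-GEO reporter cassette with its own polyadenylation signal sits in the first intron of *Mvp* in every cell of the body, and the mutant line, whose core strain is C57BL/6N, derives from a single trapped clone. The age of the sequenced mice is not given in the sources used here. In the same region of such mice the study also recorded miniature excitatory currents, which AMPA receptors carry. The counts can address the RNA levels and RNA ratios of these subunits in the 2 genotypes. They do not measure subunit protein or the receptors at synapses.

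Glutamate is the main excitatory transmitter of the cortex. AMPA, NMDA and kainate receptors are ion channels built from several subunits. AMPA receptors carry the fast current, NMDA receptors pass calcium when the membrane is depolarised and both glutamate and a co-agonist are bound, and kainate receptors adjust excitability and release. Metabotropic receptors act through G proteins, and TARPs, cornichons and Shisa proteins sit beside the AMPA receptor pore and set its traffic, gating and desensitisation. Because the subunits of a receptor compete for places in it, their ratio is often read along with their level.

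The subunit *Gria2* (GluA2) decides whether an AMPA receptor passes calcium, through the codon of the Q/R site in its pore loop, which the genome writes as glutamine and which the enzyme ADARB1 edits to arginine in RNA. The stretches around this codon are shown for the AMPA subunits and for *Grik1* and *Grik2*, kainate subunits with the same editing site, because the counts that follow sum edited and unedited RNA and cannot tell them apart. They were read from GENCODE vM21 transcripts of GRCm38, 5′ to 3′ on the coding strand, and the capitals mark the codon of the Q/R site.
Gria1: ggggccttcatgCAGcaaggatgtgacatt
Gria2: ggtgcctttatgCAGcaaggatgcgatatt
Gria3: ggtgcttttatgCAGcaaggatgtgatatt
Gria4: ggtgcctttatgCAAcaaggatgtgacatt
Grik1: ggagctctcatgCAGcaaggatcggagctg
Grik2: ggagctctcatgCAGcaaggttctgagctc
The stretch of *Gria1* lies at chr11:57243082-57243111 on the plus strand and that of *Gria3* at chrX:41610253-41610282 on the plus strand, both in exon 11 of 16. On the minus strand, the stretch of *Gria2* lies at chr3:80706896-80706925 in exon 11 of 16 and that of *Gria4* at chr9:4464122-4464151 in exon 12 of 17. For the kainate subunits the stretch runs on into the next exon, and the codon itself lies at chr16:87940542-87940544 in exon 12 of 17 of *Grik1* and at chr10:49244329-49244331 in exon 13 of 17 of *Grik2*, both on the minus strand. All 6 stretches are coding sequence, and the 6 genomic codons all encode glutamine.

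The libraries held between 28456504 and 42854368 counts. *Mvp* was at 5.49 to 7.89 CPM (counts per 1000000, scaled by the TMM method) in WT and at 1.44 to 2.13 CPM in Mvp KO, so its level followed the labels in all 8 samples. The tissue carried the markers of cortex: all 5 markers of cortical excitatory neurons were above 1 CPM in every sample, with a summed level of 5132 to 5585 CPM in WT and 4314 to 5702 CPM in Mvp KO. The cerebellar marker *Gabra6* was at 0 CPM in each WT sample and at 0.0748 CPM or less in Mvp KO. WT replicate 4 stood apart from the other 7 samples, at 71.5 on a first principal component on which the others lay between -20.4 and -2.78. Its activity-regulated genes were high, with 465 CPM of *Npas4* (23.0 to 115 CPM elsewhere) and 599 CPM of *Bdnf* (43.4 to 86.9 CPM elsewhere), while *Fos* at 153 CPM was close to the 147 CPM of Mvp KO replicate 2. The summed level of all 10 activity markers was 3800 CPM in this sample and between 661 and 1454 CPM in the others. The 5 oligodendrocyte markers summed to 5208 CPM in Mvp KO replicate 1 and to 3529 CPM in Mvp KO replicate 2, against 1202 to 2548 CPM over the other 6 samples. The results below are therefore also given without WT replicate 4. In bulk tissue, fewer cells of a type and less RNA per cell cannot be told apart.

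Between the genotypes, 0 of the 31 genes that had enough counts to be tested passed an adjusted p of 0.05 in edgeR's quasi-likelihood test, where 0.00591% of all genes tested did so. That share is 1 gene, *Mvp* itself. At an unadjusted p under 0.05 the test found 0 of the 31, against 1.56% of all genes. DESeq2's Wald test also called 0 of them at the adjusted threshold, beside 0.00651% of the genes it tested, and 0 at the unadjusted one, beside 1.17%. For 0 of the 31 did the 4 WT and the 4 Mvp KO values lie apart without overlap, against 1.52% of all genes tested. The log2 fold changes of Mvp KO over WT lay between -0.31 (*Grm4*) and 0.19 (*Grik3*), with 17 above 0 and 14 below, and their median was 0.0082 beside -2.1e-06 over all genes. The lowest adjusted p was 0.969 by the same edgeR test.

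How small a difference the counts could hold differs between the genes. For 29 of the 31 genes, or 93.5%, the 95% interval excluded a change of more than 1.5-fold in either direction, beside 64.5% of all genes tested. *Grik3* and *Grm4* had wider intervals. A change of more than 1.25-fold lay outside the interval of 12 of the 31, or 38.7%, beside 34.6% of all genes. Among these 12 were *Gria2*, *Gria3*, *Gria4*, *Grin2a* and *Grin2b*. Without WT replicate 4, 30 of the 31, or 96.8%, had intervals inside 1.5-fold, beside 71.4% of all genes tested in that fit, the exception being *Grik3*, and the fold changes ran from -0.14 to 0.20 on the log2 scale.

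**Figure D1:**
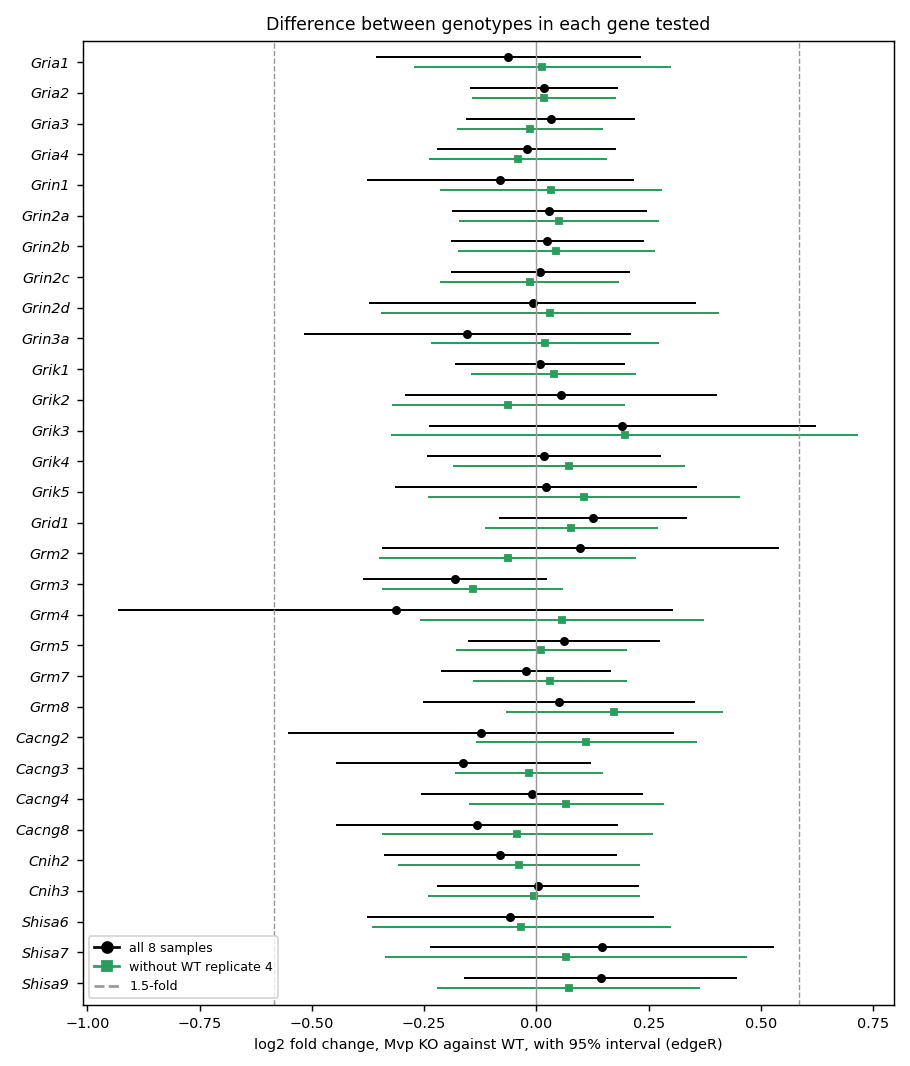
Log2 fold change of Mvp KO over WT with its 95% interval for the 31 genes tested, from all 8 samples (black circles) and without WT replicate 4 (green squares); dashed lines mark 1.5-fold in each direction. Every interval in the plot includes 0, the black interval of *Grm4* is the widest, and its point moves from -0.31 to 0.057 when WT replicate 4 is left out.

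Among the AMPA receptor pore subunits, the 2 genotypes overlapped for each of the 4 genes. *Gria2* was at 928, 897, 891 and 898 CPM in WT replicates 1 to 4 and at 826, 978, 941 and 913 CPM in Mvp KO replicates 1 to 4. The Mvp KO samples thus held both the lowest and the highest value, with a log2 fold change of 0.017 and a 95% interval from -0.14 to 0.18. *Gria1* (GluA1), the subunit whose insertion into synapses is best known from plasticity, was at 511, 398, 485 and 561 CPM in WT and at 420, 400, 524 and 528 CPM in Mvp KO. Its lowest values were those of replicate 2 in each genotype, and its log2 fold change was -0.063 with an interval from -0.36 to 0.23. *Gria3* (GluA3) was at 438, 425, 422 and 370 CPM in WT and at 377, 440, 444 and 432 CPM in Mvp KO. WT replicate 4 was its lowest sample, and without that sample its log2 fold change went from 0.032 to -0.014.

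*Gria4* (GluA4), which in cortex is prominent in fast-spiking interneurons, was at 183, 215, 176 and 179 CPM in WT and at 178, 207, 181 and 176 CPM in Mvp KO. Replicate 2 was the highest sample in both genotypes, and the other 6 samples lay within 176 to 183 CPM. *Pvalb*, a marker of fast-spiking interneurons, was also highest in these libraries, at 54.4 CPM in Mvp KO replicate 2 and 45.8 CPM in WT replicate 2 against 19.2 to 39.8 CPM in the other 6. The sum of all 6 interneuron markers was 1762 CPM in WT replicate 4, 1012 CPM in WT replicate 2, 930 CPM in Mvp KO replicate 2 and 824 to 972 CPM in the other 5. *Sst*, the marker of another interneuron class, was lowest of all 8 samples in Mvp KO replicate 2, at 124 CPM. The part of interneurons in the *Gria4* values was not tested. The log2 fold change of *Gria4* was -0.021, with an interval from -0.22 to 0.18.

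**Figure D2:**
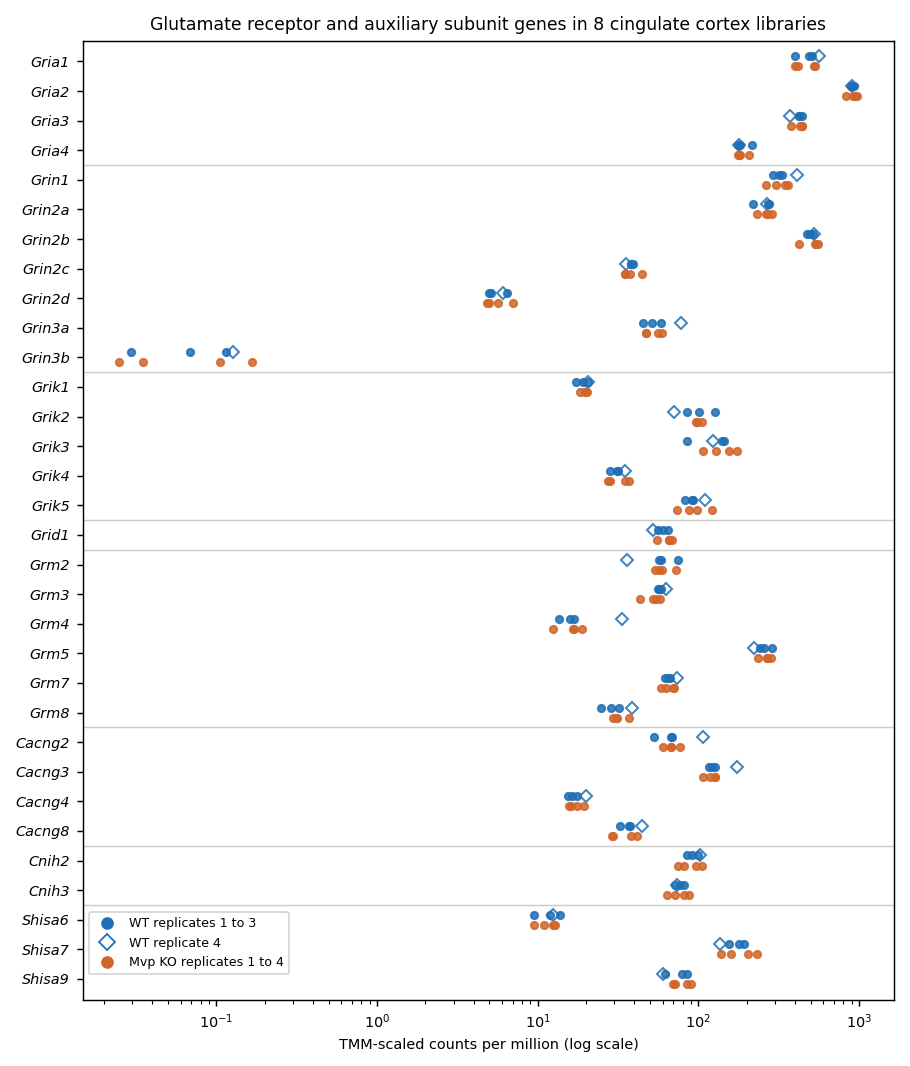
TMM-scaled CPM on a log axis for the 32 genes in each of the 8 samples, with WT in blue, Mvp KO in orange and WT replicate 4 as an open diamond; grey lines part the receptor families. The blue and orange points overlap for each gene tested, the AMPA subunit *Gria2* is the highest at 826 to 978 CPM, and *Grin3b* lies below 0.17 CPM in all samples.

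The obligatory NMDA receptor subunit *Grin1* (GluN1), which binds the co-agonist, was at 290, 320, 331 and 412 CPM in WT and at 264, 306, 348 and 362 CPM in Mvp KO. WT replicate 4 was the highest of the 8 and Mvp KO replicate 1 the lowest. The log2 fold change was -0.080 with an interval from -0.37 to 0.21, and 0.032 without WT replicate 4. Of the exonic bases of *Grin1*, 13.5% lie opposite *Grin1os* on the other strand, and whether the counting used strand is not given in the sources used here. *Grin2a* (GluN2A), the glutamate-binding subunit typical of mature synapses, was at 220, 272, 275 and 268 CPM in WT and at 233, 288, 271 and 265 CPM in Mvp KO. *Grin2b* (GluN2B), which predominates early in development and remains in adult forebrain, was at 498, 476, 520 and 522 CPM in WT and at 422, 531, 543 and 555 CPM in Mvp KO. For *Grin2b*, 3 Mvp KO samples lay above all WT samples and Mvp KO replicate 1 below them. The intervals of both genes were narrow, from -0.19 to 0.24 on the log2 scale in each case.

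The other NMDA subunits had lower counts. *Grin2c* was at 34.7 to 44.3 CPM and *Grin2d*, a subunit of interneurons and early development, at 4.82 to 7.05 CPM over the 8 samples. *Grin3a*, which lowers the calcium flow of NMDA receptors, was at 58.5, 45.3, 51.4 and 77.7 CPM in WT and at 47.2, 46.9, 55.7 and 59.6 CPM in Mvp KO. WT replicate 4 held 1.51 times the median of the other samples, and the log2 fold change of *Grin3a* went from -0.15 to 0.020 without it. *Grin3b* had between 1 and 6 counts in a sample and 24 over all 8, which was too few for a test. It is known mainly from motor neurons. Of its exonic bases, 32.1% lie opposite *Tmem259*.

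Within the genotypes, the kainate receptor subunits varied unequally, with a coefficient of variation from 6.37% for *Grik1* to 21.2% for *Grik3*. *Grik2* (GluK2), a subunit that forms channels by itself, was at 126, 85.6, 100 and 70.4 CPM in WT and at 97.9, 96.8, 98.2 and 105 CPM in Mvp KO. All 4 Mvp KO values lay inside the WT range, with an SD of 3.53 CPM in Mvp KO and 23.9 CPM in WT. *Grik3* (GluK3) was at 145, 85.1, 141 and 124 CPM in WT and at 129, 107, 156 and 173 CPM in Mvp KO. Its lowest values were again those of replicate 2 in each genotype, and its log2 fold change of 0.19 had the interval from -0.24 to 0.62. The 4 deep-layer markers had their lowest sum, 157 CPM, in WT replicate 2, and summed to 198 CPM in Mvp KO replicate 2, against 168 to 244 CPM over the other 6 samples. The 168 CPM were those of WT replicate 4, where *Grik3* was at 124 CPM. In Mvp KO replicate 2, *Fezf2*, *Foxp2* and *Bcl11b* had their lowest Mvp KO values, while *Tle4* was at its highest of all 8 samples, 74.3 CPM. The part of the layers sampled in the *Grik3* values was not tested. *Grik5* (GluK5), a high-affinity partner that needs another kainate subunit to form a channel, ran from 73.9 CPM in Mvp KO replicate 2 to 122 CPM in Mvp KO replicate 4. The related *Grik4* lay between 27.5 and 36.9 CPM and *Grik1* between 17.2 and 20.7 CPM, the narrowest range of the family.

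*Grid1*, which encodes the delta receptor GluD1 that cerebellins link to neurexins across the synapse, was at 56.4, 60.5, 64.8 and 52.1 CPM in WT and at 55.2, 68.7, 65.3 and 65.9 CPM in Mvp KO. In Mvp KO, 3 samples lay above all WT samples and replicate 1 lay among them. Its log2 fold change was 0.13 with an interval from -0.082 to 0.33, and 0.077 without WT replicate 4. Leaving out Mvp KO replicate 1 in its place took *Grid1* under an unadjusted p of 0.05 and parted the groups, but not under an adjusted p of 0.05 in edgeR's test. In that setting 1.5% of all genes tested had an unadjusted p under 0.05, and the groups did not overlap for 4.03%.

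The smallest unadjusted p of the set, 0.0754 by edgeR, belonged to *Grm3*, which encodes mGluR3, a group II receptor of astrocytes and neurons that lowers cyclic AMP (chr5:9485541-9725170, minus strand, GRCm38). *Grm3* was at 58.2, 57.2, 56.4 and 63.1 CPM in WT and at 43.5, 57.3, 52.4 and 54.1 CPM in Mvp KO. Of the Mvp KO samples 3 lay below all WT samples, while Mvp KO replicate 2 lay between WT samples, and Mvp KO replicate 1 was the lowest of the 8. The means were 58.7 ± 2.99 CPM (SD, n = 4) and 51.8 ± 5.94 CPM (SD, n = 4), for a log2 fold change of -0.18 (standard error 0.0903, 95% interval -0.38 to 0.022). After adjustment over all genes its p was 0.969 in edgeR's test, and the fold change was -0.14 without WT replicate 4. The 5 astrocyte markers summed to 1089 to 1270 CPM in WT and to 1102 to 1202 CPM in Mvp KO. The part of astrocytes in the *Grm3* values was not tested.

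*Grm2* (mGluR2), the other group II receptor, was at 58.9, 74.7, 56.6 and 36.0 CPM in WT and at 53.5, 72.4, 57.1 and 59.3 CPM in Mvp KO. WT replicate 4 was its lowest sample, at 0.612 times the median of the others, and replicate 2 was the highest in each genotype. *Grm5* (mGluR5), the group I receptor that releases calcium from stores, was at 288, 241, 254 and 223 CPM in WT and at 234, 266, 267 and 283 CPM in Mvp KO. The group III receptors sit mostly on nerve terminals. *Grm4* (mGluR4; chr17:27422387-27521403, minus strand, GRCm38) was at 13.7, 16.9, 16.0 and 33.7 CPM in WT and at 12.4, 16.8, 16.6 and 18.8 CPM in Mvp KO. WT replicate 4 stood at 2.03 times the median of the others and by itself set the group difference: the WT mean was 20.1 CPM with it and 15.5 CPM without it, beside 16.1 CPM in Mvp KO. *Grm7* lay between 58.5 and 73.3 CPM and *Grm8* between 24.9 and 38.5 CPM, and the intervals of both included 0.

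The TARPs carry AMPA receptors to the synapse and slow their gating. *Cacng2* (stargazin) was at 52.8, 68.9, 67.7 and 107 CPM in WT and at 60.6, 67.4, 68.0 and 76.5 CPM in Mvp KO. *Cacng3* (γ-3), the most abundant of the 4 listed TARP genes, was at 117, 126, 122 and 173 CPM in WT and at 107, 119, 127 and 127 CPM in Mvp KO. *Cacng8* (γ-8) was at 37.1, 32.5, 37.3 and 44.5 CPM in WT and at 29.1, 29.5, 38.1 and 41.5 CPM in Mvp KO. For all 4 listed TARP genes WT replicate 4 was the highest of the 8 samples, with *Cacng2* at 1.58 times and *Cacng3* at 1.41 times the median of the others. The log2 fold changes of the 4 lay between -0.16 (*Cacng3*) and -0.010 (*Cacng4*), and without this sample that of *Cacng2* went from -0.12 to 0.11, that of *Cacng3* to -0.016 and that of *Cacng4* to 0.067.

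The cornichon genes, whose proteins help AMPA receptors leave the endoplasmic reticulum and slow their deactivation, showed no such shift in WT replicate 4. *Cnih2* was at 99.6, 90.8, 85.6 and 102 CPM in WT and at 81.4, 74.2, 96.7 and 105 CPM in Mvp KO. *Cnih3* was at 81.5, 71.3, 76.8 and 73.9 CPM in WT and at 71.5, 64.1, 87.0 and 81.6 CPM in Mvp KO. For both genes the lowest sample was Mvp KO replicate 2, and the genotypes overlapped over most of their range. The log2 fold change was -0.081 for *Cnih2* and 0.0035 for *Cnih3*, whose sign turned with DESeq2's test, with its size factors and with the replicate block.

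The Shisa proteins bind AMPA receptors at the synapse and change how they desensitise. *Shisa7* was at 192, 155, 179 and 136 CPM in WT and at 159, 139, 202 and 232 CPM in Mvp KO. *Shisa9* (CKAMP44) was at 84.9, 62.2, 79.0 and 60.1 CPM in WT and at 71.4, 69.3, 84.9 and 90.6 CPM in Mvp KO. For both, WT replicate 4 was the lowest and Mvp KO replicate 4 the highest sample. The log2 fold changes were 0.15 (interval -0.24 to 0.53) and 0.14 (interval -0.16 to 0.44), and 0.066 and 0.072 without WT replicate 4. *Shisa6*, which keeps receptors from desensitising, lay between 9.49 and 13.8 CPM.

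WT replicate 4 stood apart over all genes tested as well as in the glutamate receptor set. Its median absolute log2 difference from the median of the other samples was 0.242 over the 31 genes and 0.297 over all genes, and 10 of the 31 lay at least 1.25-fold away, where 47.0% of all genes did. Of the 31 genes tested it was the highest library for 11 and the lowest for 7, that is for 35.5% and 22.6%, while over all genes tested it was the highest for 29.2% and the lowest for 32.5%. The 11 were *Gria1*, *Grin1*, *Grin3a*, *Grm3*, *Grm4*, *Grm7*, *Grm8* and the 4 TARP genes. The 7 were *Gria3*, *Grik2*, *Grid1*, *Grm2*, *Grm5*, *Shisa7* and *Shisa9*. Mvp KO replicate 1, the library with the highest oligodendrocyte markers, was the lowest for 10 of the 31, or 32.3%, and the highest for 0, beside 13.8% and 15.5% of all genes. Among those 10 were *Gria2*, *Grin1*, *Grin2b* and *Grm3*. Mvp KO replicate 4 was the highest library for 8, or 25.8%, and the lowest for 1, or 3.23%, beside 12% and 12.8% of all genes. WT replicate 2 was the lowest for 7, or 22.6%, and the highest for 2, or 6.45%, beside 7.01% and 8.28% of all genes. The part of the activity genes and of the oligodendrocyte share in these positions was not tested.

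**Figure D3:**
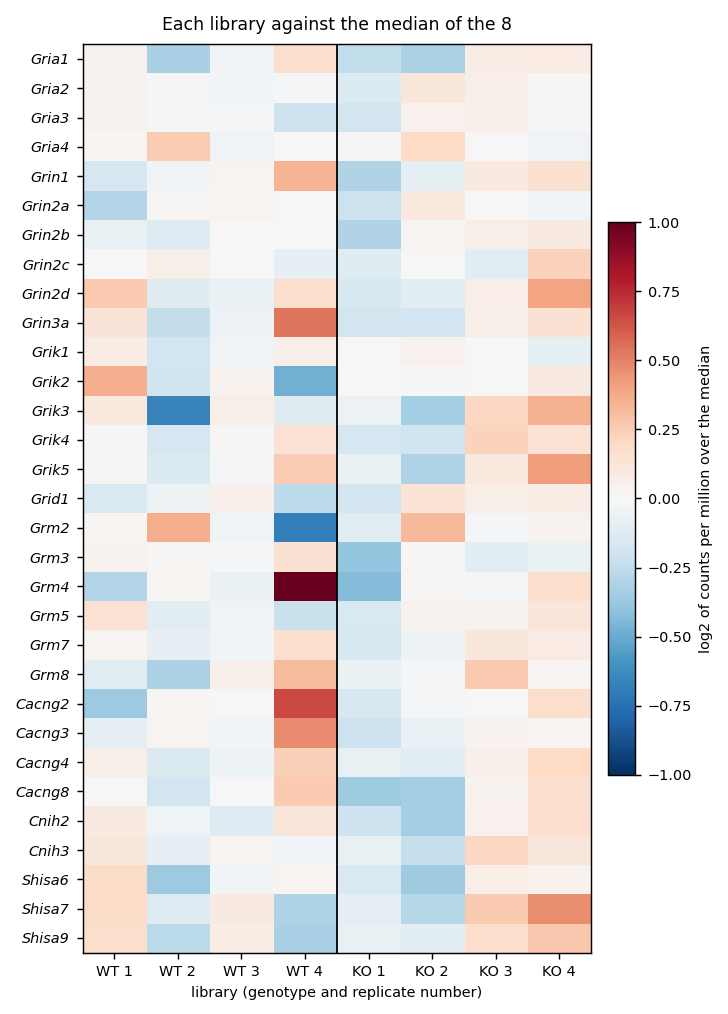
Log2 of the CPM of each of the 31 genes tested over the median of the 8 samples, with the libraries as columns and the WT libraries to the left of the black line. WT replicate 4 holds the strongest reds (*Grm4*, *Cacng2*, *Grin3a*) together with deep blues (*Grm2*, *Grik2*), Mvp KO replicate 1 is blue or near white for most genes, and *Gria4* and *Grm2* are red in replicate 2 of both genotypes.

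Levels of different genes were compared per kilobase, as CPM divided by the length of all annotated exons of the gene. On that scale *Gria1* was the highest at 79.2 CPM per kb over the 8 samples, followed by *Cnih2* at 67.2, *Gria2* at 58.5, *Cacng3* at 45.9, *Gria3* at 42.5 and *Grin1* at 33.9 CPM per kb. The lowest were *Grik1* at 2.90, *Shisa6* at 1.57, *Grin2d* at 0.847 and *Grin3b* at 0.0255 CPM per kb. Over the 8 samples the ranges of neighbours in this order overlapped, except in the last 3 steps from *Grik1* to *Shisa6*, *Grin2d* and *Grin3b*. The top of the order depends on the length: per kilobase of the longest coding transcript, *Gria2* was at 87.6, *Gria1* at 86.2, *Gria3* at 80.6, *Grin1* at 77.0 and *Cnih2* at 68.5 CPM per kb.

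Within the AMPA family, *Gria1* held 38.3% ± 4.15 (SD, n = 4) of the summed level per kb in WT and 37.0% ± 3.63 (SD, n = 4) in Mvp KO. *Gria2* held 27.6% ± 0.858 in WT and 28.2% ± 1.56 in Mvp KO (SD, n = 4 each), and ran from 26.7% to 30.5% over the 8 samples. With the longest coding transcripts as lengths, the share of *Gria2* was 30.1% in WT and 30.6% in Mvp KO, and that of *Gria1* was 30.4% and 29.2%. *Gria4* took between 12.8% and 17.0% of the family. The summed AMPA level was 211 ± 7.98 CPM per kb in WT and 209 ± 14.4 CPM per kb in Mvp KO (SD, n = 4 each), so the family as a whole also differed by less than its spread.

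In the NMDA family, *Grin1* held 42.0% of the summed level per kb of exon in WT and 40.6% in Mvp KO. *Grin2b* held 24.6% and 25.5%, and *Grin2a* 17.5% and 18.3%. These shares depend on the length: with the longest coding transcripts, *Grin1* held 58.7% in WT and 57.45% in Mvp KO. *Grin2b* then held 15.7% and 16.4%, and *Grin2a* 13.2% and 14.0%. *Grik5* and *Grik3* led the kainate family, with 38.6% and 28.8% in WT and 36.7% and 31.3% in Mvp KO. Of the 6 metabotropic receptors, *Grm5* held 33.5% in WT and 35.6% in Mvp KO, and *Grm3* 26.3% ± 1.66 in WT and 23.5% ± 0.857 in Mvp KO (SD, n = 4 each). In single samples the share of *Grm3* was 25.2% to 28.8% for WT and 22.6% to 24.7% for Mvp KO. The share also depends on the levels of the other 5 metabotropic genes, and the *Grm3* level itself overlapped between the genotypes. Of the 31 shares within families, that of *Grm3* was the only 1 whose genotypes did not overlap. For the level of a gene, a different measure, the groups did not overlap for 1.52% of all genes tested. Shares within a family also depend on each other. The *Grm3* share was chosen after its values were seen and was not tested. The shares of the auxiliary subunits are taken over the listed genes only. *Cacng3* held over 55% of the level of the 4 listed TARP genes in every sample. *Cnih2* held between 69.1% and 73.5% of that of the 2 listed cornichon genes, and *Shisa7* between 59.0% and 64.9% of that of the 3 listed Shisa genes.

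**Figure D4:**
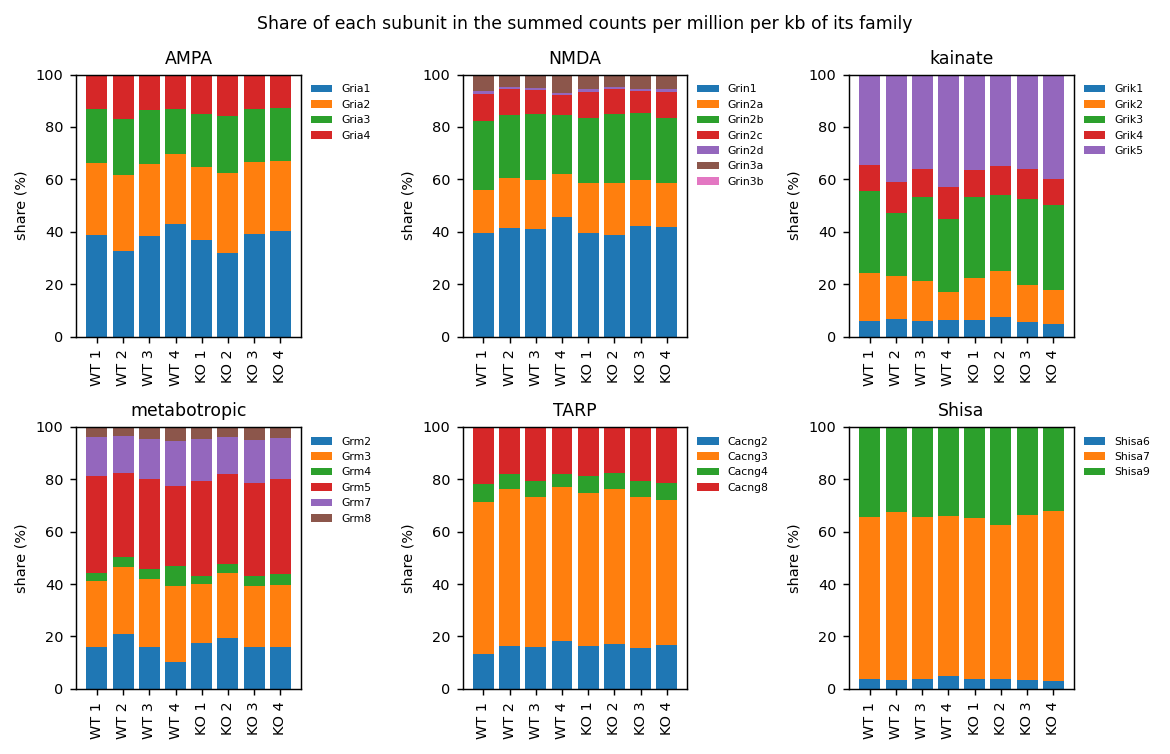
Share of each subunit gene in the summed CPM per kb of the listed genes of its family, in percent, stacked for each of the 8 libraries in 6 families. The leading subunit of each family (*Gria1*, *Grin1*, *Grik5*, *Grm5*, *Cacng3*, *Shisa7*) is the same in all 8 libraries, and the clearest departures are in WT replicate 4, where *Grik2* takes 10.8% of the kainate family, *Grm2* 10.3% and *Grm4* 7.85% of the metabotropic family.

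Ratios within a library do not depend on how the libraries are scaled. Of 24 subunit ratios compared between the genotypes by an exact two-sided permutation test of the log2 ratio, 0 passed after Benjamini-Hochberg adjustment over the 24, and the lowest exact p was 0.114 (70 arrangements, smallest possible p 0.0286). A single ratio at that smallest p would not pass the adjustment, so the count of 0 does not show that the ratios are unchanged. The groups overlapped in all 24. *Gria1*/*Gria2* per kb of exon was 1.42, 1.14, 1.40 and 1.61 in WT and 1.31, 1.05, 1.43 and 1.49 in Mvp KO. Replicate 2 was the lowest in each genotype, and the geometric means were 1.38 and 1.31, or 1.0 and 0.951 with transcript lengths. The ratio is the one most often linked to calcium-permeable AMPA receptors, which RNA counts do not measure. Its log2 difference of Mvp KO from WT was -0.078 (exact permutation p = 0.6, adjusted 0.984). Without WT replicate 4 the difference was -0.0052.

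*Gria3*/*Gria2* was 0.745, 0.747, 0.747 and 0.650 in WT and 0.719, 0.710, 0.745 and 0.745 in Mvp KO, so that WT replicate 4 lay below 7 samples that spanned 0.710 to 0.747. *Gria4*/*Gria2* was highest in WT replicate 2, at 0.592, and lay between 0.475 and 0.533 in the others. The ratio that shifts with synaptic maturation, *Grin2a*/*Grin2b*, was 0.612, 0.793, 0.732 and 0.713 in WT and 0.764, 0.752, 0.691 and 0.662 in Mvp KO. WT held both its lowest and its highest value, with a log2 difference of 0.013 (exact permutation p = 0.914, adjusted 0.984). *Grin2b*/*Grin1* was 0.671, 0.582, 0.613 and 0.494 in WT and 0.625, 0.678, 0.609 and 0.598 in Mvp KO. *Grin1*/*Gria2*, which sets NMDA beside AMPA subunits, had geometric means of 0.595 in WT and 0.558 in Mvp KO. Its highest value, 0.735, was in WT replicate 4. With transcript lengths its geometric means were 0.901 in WT and 0.844 in Mvp KO. Those of *Grin2b*/*Grin1* went from 0.587 and 0.627 per kb of exon to 0.267 and 0.285. The size of these ratios thus depends on the length used, while the log2 difference between the genotypes does not.

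In the kainate family *Grik2*/*Grik5* spread the most, from 0.251 in WT replicate 4 to 0.534 in WT replicate 1, and the 4 Mvp KO samples lay between, at 0.334 to 0.511. *Grik4*/*Grik5* had almost equal geometric means, 0.291 in WT and 0.292 in Mvp KO. *Grm3*/*Grm2* had the largest difference of the 24, at 1.59, 1.23, 1.60 and 2.81 in WT and 1.30, 1.27, 1.47 and 1.46 in Mvp KO. Here WT replicate 4 stood above all other samples, and the log2 difference went from -0.32 (exact permutation p = 0.200, adjusted 0.984) to -0.088 without it. *Grm4*/*Grm7* likewise reached 0.453 in WT replicate 4 against 0.202 to 0.270 in the others.

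Among the auxiliary subunits *Cacng3*/*Cacng2* was 4.38, 3.64, 3.58 and 3.20 in WT and 3.52, 3.5, 3.71 and 3.3 in Mvp KO, and WT held both extremes. *Cacng8*/*Gria2*, the TARP γ-8 beside the pore subunit it accompanies, ran from 0.200 in Mvp KO replicate 2 to 0.328 in WT replicate 4. *Cnih3*/*Cnih2* had geometric means of 0.400 and 0.425 in WT and Mvp KO. The lowest p of the family of ratios was that of *Shisa6*/*Shisa9*, at 0.115, 0.107, 0.107 and 0.146 in WT and 0.108, 0.0971, 0.106 and 0.0969 in Mvp KO. Of these Mvp KO samples 3 lay below all WT samples. The log2 difference was -0.21 (exact permutation p = 0.114, adjusted 0.984), and -0.10 without WT replicate 4 (exact permutation p = 0.229).

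**Figure D5:**
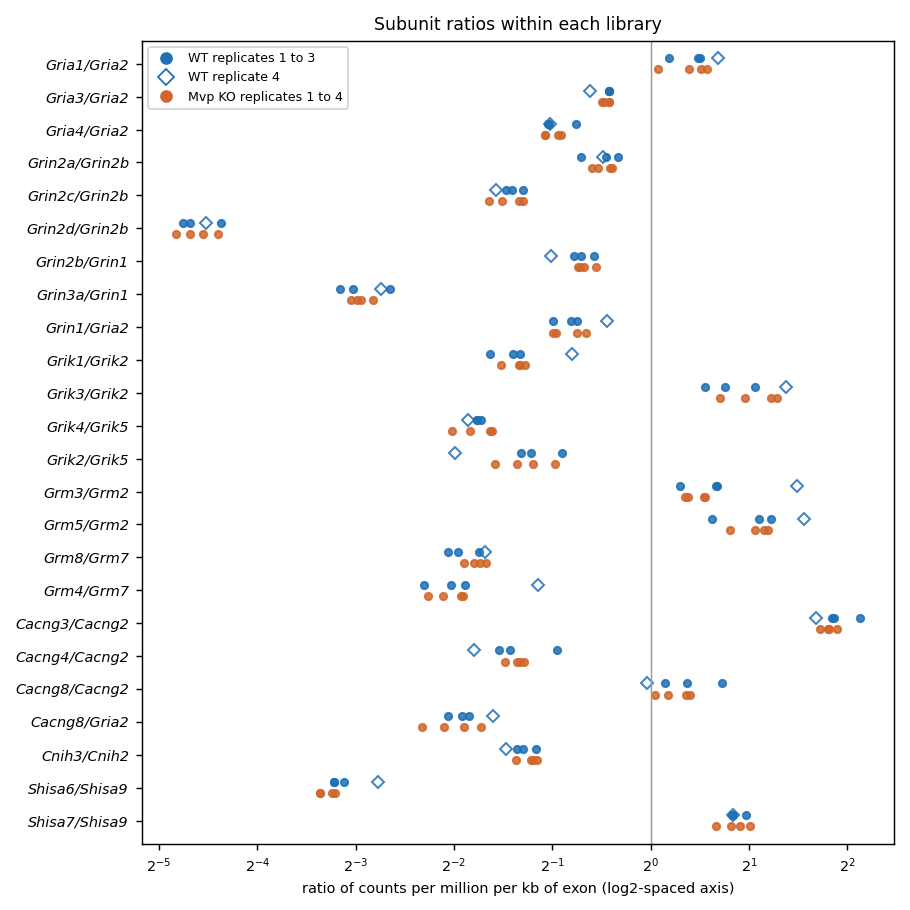
The 24 subunit ratios in each library, as ratios of CPM per kb of exon on an axis spaced by log2, with WT in blue, Mvp KO in orange and WT replicate 4 as an open diamond. Blue and orange points overlap for every ratio, and the open diamond lies outside the other 7 points for *Grm3*/*Grm2*, *Grm4*/*Grm7*, *Grik2*/*Grik5* and *Grik1*/*Grik2* among others.

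The genes that make, move and clear glutamate or that hold these receptors in place were read from the same fit as a list of 32 partner genes, all of them tested. By edgeR's quasi-likelihood test 0 passed an adjusted p of 0.05 and 1 had an unadjusted p under 0.05, beside 0.00591% and 1.56% of all genes. Their log2 fold changes had a median of -0.077, with 8 above 0 and 24 below, and without WT replicate 4 a median of -0.0070, with 15 above and 17 below. The gene under the unadjusted threshold was *Nptx2*, which encodes a secreted pentraxin that gathers AMPA receptors at synapses. *Nptx2* was at 65.1, 80.4, 84.6 and 1190 CPM in WT and at 59.8, 44.5, 87.8 and 107 CPM in Mvp KO. A single library, WT replicate 4, set its log2 fold change of -2.25, which was -0.037 without it.

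*Homer1*, a scaffold of group I metabotropic receptors, was at 391, 438, 434 and 1205 CPM in WT and at 367, 204, 462 and 503 CPM in Mvp KO. *Nrn1* (neuritin), a protein found in AMPA receptor complexes, was at 201, 286, 251 and 590 CPM in WT and at 223, 273, 235 and 238 CPM in Mvp KO. These genes had the next smallest p of the partner list, 0.124 and 0.153 unadjusted by edgeR, and in both the highest sample was WT replicate 4, with log2 fold changes of -0.13 and -0.021 when it was left out. *Adarb1*, whose enzyme edits the Q/R codon printed above, was at 169 to 235 CPM over the 8 samples, with a log2 fold change of -0.093 and an interval from -0.33 to 0.15.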

How the data were processed

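RNA-seq of the cingulate gyrus of 8 male mice was analysed, with genotype and replicate number from the sample labels, and the study describes its replicates as biological. Per the submitters' notes and the methods, the authors trimmed the 50-base reads with cutadapt 1.10, discarded ribosomal reads with Bowtie2 2.2.8, aligned to mm10 with STAR 2.5.3a and deposited raw counts per gene from HTSeq 0.6.1p1. The counting mode and strand setting are not given in the sources used here. A read that fits more than 1 gene may be left out or given to either, which touches *Grin1* and *Grin3b*, as given above. It also touches *Grin2d*, *Grm2* and *Cacng2*, of whose exonic bases 9.66%, 9.6% and 5.86% lie opposite another gene. *Grm2* and *Cacng2* are denominators of several of the ratios.

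Of 53379 gene IDs, 53274 matched GENCODE vM21 (GRCm38), which gave symbols, exon lengths and coordinates for all 32 genes. Counts were fitted over 16914 genes in R 4.3.3 with edgeR 4.0.16 (filterByExpr with a minimum count of 10, TMM, robust quasi-likelihood, genotype as the single term), with Benjamini-Hochberg adjustment over all genes and a threshold of 0.05. Ratios were log2 ratios of normalized counts + 0.5, compared by exact permutation over 70 arrangements. The tests were tested on simulated data. Members, ratios, partner genes and markers were chosen with earlier results of these data known. Genes named are *Mvp*, all 32 members, the 3 partner genes with the smallest p, and markers standing beside a member; *Adarb1* was named after its values were seen. Alternatives were DESeq2 1.42.0's Wald test and size factors, no filter, the replicate number as a block, a pseudocount of 2, transcript lengths and leaving out each sample. Depth was 28456504 to 42854368 counts, and the part of counting noise in the spread of each gene was not tested. Figures used matplotlib 3.10.9.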

Additional observations from a re-analysis of the deposited data

Results flagged for a closer look

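Dixon's criterion, which divides the distance from the highest or lowest value to the next by the whole range, was applied to 112 groups of 4 samples: the levels of the genes, their ratios and the library totals in each genotype. At its 95% level 8 groups passed, and 5.6 would pass by chance.

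For library size the sample was WT replicate 2, whose 42854368 counts compare with 33408202 to 34760784 in the rest of the WT samples. The same sample was the highest WT sample for *Gria4*, at 215.3 CPM against 176.2 to 182.7, and Mvp KO replicate 2 was the highest Mvp KO sample for this gene, at 206.9 CPM against 175.9 to 181.2. WT replicate 2 also had the highest WT log2 ratio of *Gria4*/*Gria2*, -0.7561 against -1.042 to -1.022, and of *Shisa7*/*Shisa9*, 0.9718 against 0.8357 to 0.84. WT replicate 1 was the lowest WT sample for *Grin2a*, at 220.2 CPM against 268.5 to 275.1.

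WT replicate 4 was the highest WT sample for *Grm4*, at 33.69 CPM against 13.65 to 16.93. It had the lowest WT log2 ratio of *Gria3*/*Gria2*, -0.6217 against -0.4239 to -0.421. The causes of these 8 values were not tested.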

How the results depend on the processing

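No gene of the set passed an adjusted p of 0.05 under any alternative tried (lowest adjusted p 0.846 over all of them), and 0 of the 24 ratios passed. As said above, a single ratio at the smallest possible p could not pass. Over all genes tested, the number past the threshold was 1 in the edgeR fit with DESeq2's size factors and with no filter, 2 with DESeq2's Wald test, 0 with the replicate block, and 0 to 1 over the 8 fits that omit a sample in turn. At an unadjusted p under 0.05 the set held 0 to 1 genes over these 8 fits (*Grid1* without Mvp KO replicate 1, *Grm3* without Mvp KO replicate 2), and 0 to 2 of its genes did not overlap (*Grin2b* and *Grid1* without Mvp KO replicate 1, *Grm3* without Mvp KO replicate 2). Over all genes these shares were 1.13% to 2.75% at that p, 1.5% without Mvp KO replicate 1 and 1.13% without replicate 2, and 2.8% to 4.17% for no overlap, 4.03% and 3.24% without those 2. Samples of the same number have nothing else in common in the labels, and their deviations from the genotype means correlated at 0.055, 0.29, -0.0067 and 0.051, and 1 of the 4 WT samples correlated best with its own number. With the replicate block, 0 genes of the set and 0 ratios passed. For the ratios that outcome was fixed in advance. They were compared there by sign flips over 4 pairs, whose smallest possible p is 0.125.

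Many fold changes lie near 0, and their sign turned with single samples, in 22 of the 31 genes and 18 of the 24 ratios. *Cnih3* had a log2 fold change of -4.0e-05 with DESeq2's Wald test, -0.0011 with DESeq2's size factors and -0.0048 with the replicate block. With each sample left out, the log2 fold change ran from -0.26 to 0.11 for *Cacng2*, -0.076 to 0.067 for *Cacng4*, -0.069 to 0.074 for *Cnih3*, -0.15 to 0.014 for *Gria1*, -0.020 to 0.065 for *Gria2*, -0.014 to 0.086 for *Gria3*, -0.081 to 0.047 for *Gria4*, -0.047 to 0.039 for *Grik1*, -0.063 to 0.22 for *Grik2*, -0.064 to 0.077 for *Grik4* and -0.12 to 0.12 for *Grik5*. It ran from -0.15 to 0.032 for *Grin1*, -0.043 to 0.087 for *Grin2a*, -0.018 to 0.11 for *Grin2b*, -0.075 to 0.051 for *Grin2c*, -0.14 to 0.061 for *Grin2d*, -0.26 to 0.020 for *Grin3a*, -0.063 to 0.26 for *Grm2*, -0.47 to 0.057 for *Grm4*, -0.064 to 0.030 for *Grm7*, -0.047 to 0.17 for *Grm8* and -0.16 to 0.017 for *Shisa6*. The log2 difference of the ratio ran from -0.14 to 0.015 for *Cacng3*/*Cacng2*, -0.053 to 0.23 for *Cacng4*/*Cacng2*, -0.17 to 0.078 for *Cacng8*/*Cacng2*, -0.17 to 0.027 for *Gria1*/*Gria2*, -0.033 to 0.034 for *Gria3*/*Gria2*, -0.065 to 0.035 for *Gria4*/*Gria2*, -0.19 to 0.086 for *Grik1*/*Grik2*, -0.13 to 0.23 for *Grik2*/*Grik5* and -0.017 to 0.26 for *Grik3*/*Grik2*. It ran from -0.049 to 0.084 for *Grik4*/*Grik5*, -0.18 to 0.0080 for *Grin1*/*Gria2*, -0.058 to 0.067 for *Grin2a*/*Grin2b*, -0.064 to 0.051 for *Grin2c*/*Grin2b*, -0.11 to 0.040 for *Grin2d*/*Grin2b*, -0.14 to 0.029 for *Grin3a*/*Grin1*, -0.37 to 0.022 for *Grm4*/*Grm7*, -0.24 to 0.073 for *Grm5*/*Grm2* and -0.077 to 0.042 for *Shisa7*/*Shisa9*. WT replicate 4 turned the sign of 13 fold changes and 8 ratios and Mvp KO replicate 2 of 8 and 9. The causes were not tested. Only *Grin3b* had too few counts for a test, with at most 6 counts in a sample. For a gene with a count of 0, 3 counts are the most that the 0 allows.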
